A study of Homo sapiens with 6 samples.

Results

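The replication-dependent histone genes encode the bulk histones H1, H2A, H2B, H3 and H4 that package newly copied DNA. They were picked from the deposited gene table by symbol alone: symbols beginning with HIST1H to HIST4H, symbols made of H2AC, H2BC, H3C or H4C and a digit, and H1-1 to H1-6. The table uses current symbols, so the older HIST names matched 0 rows, and 66 of 20289 genes were members. H1-10 also begins with H1-1 but encodes a replication-independent linker histone, and it was counted with the variant histones. By class the members were 16 H2A, 17 H2B, 6 H1, 13 H3 and 14 H4 genes, 55 of them on chromosome 6 and 11 on chromosome 1. Of the 66 members, 14 had 0 counts in every library, 19 had at least 10 counts in at least 3 libraries, and 16 passed the count filter of the test.

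The libraries were made from SW480 cells, an established human colon adenocarcinoma line. The labels give 3 MUCP1-FLAG libraries, from cells overexpressing the FLAG-tagged microprotein MUCP1, and 3 LV-NC libraries, from control cells. The genotype is labelled as overexpression of MUCP1-Flag in MUCP1-FLAG and as WT in LV-NC, and both were grown in serum-supplemented L-15 with antibiotics. The labels call the libraries biological replicates and name no promoter, clone, passage or day, so p-values measure the spread between these libraries. MUCP1 is not among the table's symbols, and its overexpression was therefore not checked. The question posed is which transcripts change when MUCP1 is raised.

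Histone mRNAs of this family are made mainly in S phase, and most end in a conserved stem-loop in place of a poly(A) tail. The stem-loop binding protein SLBP holds that hairpin, the U7 small nuclear ribonucleoprotein guides the cut behind it, and the mRNA is degraded when DNA replication ends. Some of these genes also make polyadenylated transcripts, by reading past the stem-loop to a downstream poly(A) site. Libraries that select poly(A) RNA under-sample stem-loop mRNAs. The labels name a dual-mode mRNA library kit without giving the capture used here, so the values below are levels in these libraries and not of all histone mRNA.

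The stem-loop is the feature that sets these transcripts apart, and it is shown for H2AC6, H2BC21 and H2BC5, which were lower in MUCP1-FLAG, and for H2AC11, H4C8 and H4C14, which show its other forms. Sequences and positions are from GENCODE 29 on GRCh38. The capitals mark the match, on the sense strand, to GGNN followed by CTTTT, NNNN and GNC, where N is any base, with 5 flanking bases on each side, and the coordinates are those of the 16 capital letters.
H2AC6 stem-loop, chr6:26124669-26124684, plus strand: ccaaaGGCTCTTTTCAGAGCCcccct
H2BC21 stem-loop, chr1:149886188-149886203, minus strand: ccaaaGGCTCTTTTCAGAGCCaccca
H2BC5 stem-loop, chr6:26158587-26158602, plus strand: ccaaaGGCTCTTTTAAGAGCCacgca
H2AC11 stem-loop, chr6:27133515-27133530, plus strand: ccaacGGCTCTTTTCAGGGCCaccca
H4C8 stem-loop, chr6:26285131-26285146, minus strand: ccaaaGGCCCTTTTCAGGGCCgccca
H4C14 stem-loop, chr1:149833032-149833047, plus strand: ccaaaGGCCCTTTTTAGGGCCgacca

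Of the 66 members, 64 were in GENCODE 29, and 33 of these had a transcript model that extends beyond the coding sequence. The other 31 were coding-only models, which cannot hold the hairpin. The motif was found in 28 members, counting a match in any transcript of the gene. Counted by single transcript, members included, it was in 0.481% of 206694 transcripts of the release. The form in H2AC6 and H2BC21 was shared by 15 members, and the form in H4C8 by 4. The form in H2BC5 was in 4 members, that in H4C14 in 3 and that in H2AC11 in 1. The 6 bases on each side of the loop paired exactly in 26 members. Among the 16 tested members, 13 held the motif, and in 8 of these the longest model ran on for at least 500 bases behind it. H2AC6 ran on for 1128 bases and H2BC21 for 1729 bases, whereas the stem-loop transcript of H2BC5 ended 39 bases behind the hairpin. GENCODE gives H2BC5 2 transcripts of up to 2 exons, the longest of 789 bases. Among the 48 other members in the release, 15 held the motif and 8 had at least 500 bases behind it. The search did not require a match to lie behind the coding sequence. The match of H3C6, whose stem did not pair exactly, may lie within coding sequence and so may not be a hairpin. H3C6 is counted in the 28, the 15 and the 8. Reads were counted per gene, so stem-loop and polyadenylated transcripts of a gene cannot be told apart in these counts.

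The table gives read counts and FPKM values, which scale the counts by transcript length and depth. Total counts ran from 17333329 to 23282604 in MUCP1-FLAG and from 18867369 to 21534908 in LV-NC, and mitochondrial transcripts took 5.91% to 6.24% of counts in MUCP1-FLAG and 6.10% to 6.61% in LV-NC. At an adjusted p of 0.05, edgeR called 8.35% of the genes it tested higher in MUCP1-FLAG and 7.71% lower. Of 12 colon epithelium markers 7 entered this test, and 1 was higher and 3 lower in MUCP1-FLAG. Their summed level was 6876 to 7054 CPM (counts-per-million of the library total, with TMM scaling for single genes and markers and without it for sums of histone genes) in MUCP1-FLAG and 6394 to 7070 CPM in LV-NC. The lower markers were the cadherin gene CDH1 (log2 fold change -1.06 ± 0.08; edgeR adjusted p = 3.26e-09), VIL1 (-0.40 ± 0.10; 0.00731) and EPCAM (-0.33 ± 0.05; 3.51e-05), and KRT19 was higher (0.17 ± 0.05; 0.0322). Keratins make up most of the sum, with KRT8 at 3687 CPM in MUCP1-FLAG and 3615 CPM in LV-NC. Their part in the histone values was not tested. CDX1 was at 0 in all libraries, and KRT20, CEACAM5, MUC2 and LGR5 were too low to test. The lists of 6 fibroblast, 6 blood and 4 endothelial markers each summed to at most 4.17 CPM in any MUCP1-FLAG library and at most 3.30 CPM in any LV-NC library.

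The histone transcripts were scarcer in MUCP1-FLAG. Summed over the 66 members, they had 80.5, 77.7 and 83.9 CPM in MUCP1-FLAG, against 118, 108 and 108 CPM in LV-NC. Every MUCP1-FLAG library was below every LV-NC library. The means were 80.7 ± 3.08 in MUCP1-FLAG and 112 ± 5.85 in LV-NC (SD, n = 3 each), a ratio of 0.723. The summed FPKM, which weighs each gene by length, averaged 107.5 ± 5.33 in MUCP1-FLAG and 142.6 ± 7.71 in LV-NC, a ratio of 0.754. In bulk RNA, fewer cells with these transcripts and less histone RNA per cell cannot be told apart. Of 20 S phase genes, 15 were higher and 0 lower in the same MUCP1-FLAG libraries, beside 8.35% higher and 7.71% lower over all tested genes. Their relation to the histone values was not tested.

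The H2A and H2B genes held most of the counts and most of the difference. H2B genes took 43.6% of all member counts and summed to 33.8 ± 0.263 CPM in MUCP1-FLAG, against 49.96 ± 1.12 in LV-NC, a ratio of 0.677. H2A genes took 31.1% and summed to 23.1 ± 1.90 CPM in MUCP1-FLAG and 36.8 ± 3.66 in LV-NC, a ratio of 0.626. In both classes the libraries of the 2 groups did not overlap. Most of the H2A gap came from a single gene, H2AC6, at 10.7 CPM in MUCP1-FLAG and 22.8 CPM in LV-NC (with TMM scaling). Without H2AC6 the H2A sums of the groups overlapped. The H1 genes, 15.7% of counts, summed to 15.5 ± 1.90 CPM in MUCP1-FLAG and 14.8 ± 2.40 in LV-NC, and the H3 genes, 2.66%, to 2.48 ± 0.586 in MUCP1-FLAG and 2.59 ± 0.210 in LV-NC. For both H1 and H3 the groups overlapped, and the H3 ratio was 0.955 on counts and 1.19 on FPKM. The H4 genes, 6.98% of counts, summed to 5.85 ± 1.44 CPM in MUCP1-FLAG and 7.46 ± 0.925 in LV-NC, also with overlap. The 55 genes on chromosome 6 had a ratio of 0.703 and the 11 on chromosome 1 a ratio of 0.771.

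**Figure D1:**
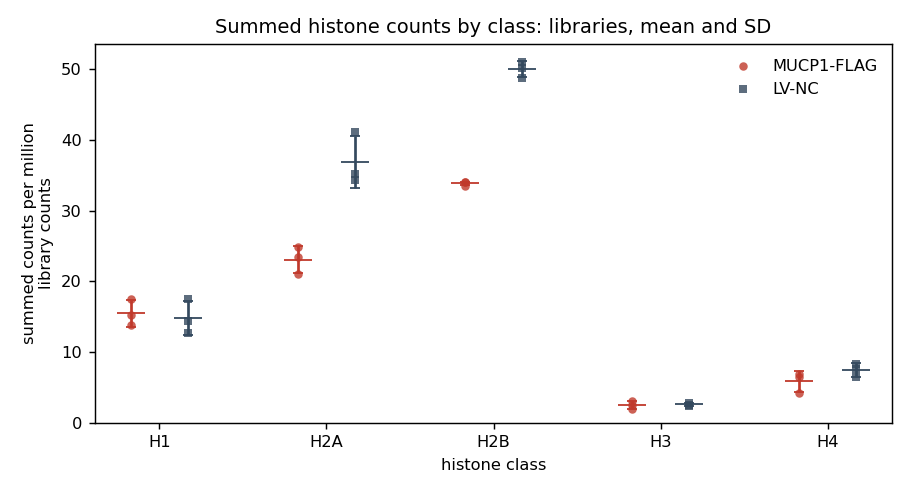
Summed CPM (y axis) of the histone genes of each class (x axis), with points for libraries and bars for the mean and SD of the 3 MUCP1-FLAG and the 3 LV-NC libraries. The H2A and H2B sums of MUCP1-FLAG, at 23.1 and 33.8 on average, lie below every LV-NC library. Most of the H2A gap is from H2AC6. The groups overlap for H1, H3 and H4.

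Gene by gene, 4 members fell in MUCP1-FLAG and 0 rose, by edgeR's quasi-likelihood F test at a Benjamini-Hochberg adjusted p of 0.05 over all 12920 tested genes. Of all tested genes 7.71% were lower and 8.35% higher, so the 4 of 16 (25%) exceed the share of lower calls over all genes. The other 12 members did not pass. The fitted log2 fold change was below 0 in 14 of the 16 (87.5%), against 51.0% of all genes, and its median was -0.47, against -0.00 over all genes. In 10 of the 16 (62.5%) all 3 MUCP1-FLAG CPM values were below all 3 LV-NC values, against 16.4% of all tested genes. In FPKM the groups of H2BC11 and of H4C8, both among the 10, overlapped. The 50 members outside the test held 6.30% of the member counts and are not covered by these counts of calls.

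**Figure D2:**
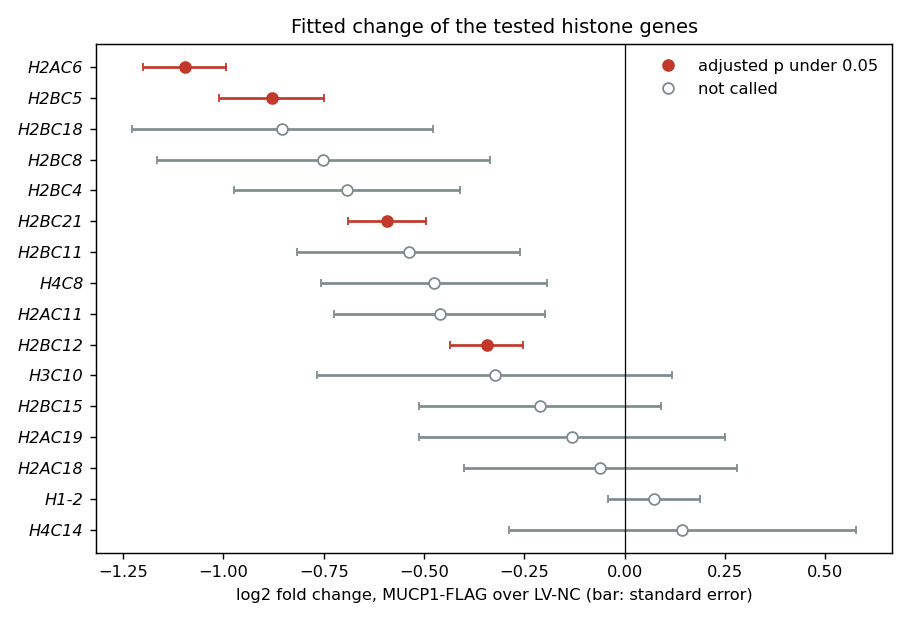
Fitted log2 fold change of MUCP1-FLAG over LV-NC (x axis) for each of the 16 tested histone genes (y axis), with bars for the standard error. The 4 genes that passed the test run from -1.10 for H2AC6 to -0.34 for H2BC12, and only H1-2 and H4C14 of the 16 lie above 0.

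H2AC6, which encodes a canonical H2A (chr6:26124145-26139116, plus strand, GRCh38), showed the largest fall of the tested members. Its counts were 192, 232 and 210 in MUCP1-FLAG, against 510, 443 and 406 in LV-NC. All MUCP1-FLAG libraries were below all LV-NC libraries. On the CPM scale it averaged 10.7 ± 0.523 in MUCP1-FLAG and 22.8 ± 3.31 in LV-NC (SD, n = 3 each), 2.14-fold lower (log2 fold change -1.10 ± 0.10, SE; edgeR adjusted p = 1.78e-07). GENCODE gives it 3 transcripts of up to 2 exons, and 0.432% of its 50-base windows also occur in another gene.

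The other 3 H2A genes in the test did not pass it. H2AC18 had 73, 77 and 162 counts in MUCP1-FLAG, against 97, 106 and 125 in LV-NC, with overlap (log2 fold change -0.06 ± 0.34; edgeR adjusted p = 0.931). H2AC19 had 90, 119 and 41 counts in MUCP1-FLAG, against 112, 105 and 57 in LV-NC, also with overlap (-0.13 ± 0.38; edgeR adjusted p = 0.863). These genes lie near each other on chromosome 1 as near-identical copies: 100% of the 50-base windows of H2AC18 and 97.1% of those of H2AC19 occur in the other. In both groups H2AC18 was highest and H2AC19 lowest in library 3, so their single values depend on how reads were divided between them and are uncertain. Their summed counts were steadier, at 163, 196 and 203 in MUCP1-FLAG and 209, 211 and 182 in LV-NC. The sum did not pass the test (-0.09 ± 0.11 on the log2 scale; edgeR adjusted p = 0.638). Whether H2AC6 and the pair differ in response was not tested. H2AC11 had 19, 29 and 36 counts in MUCP1-FLAG, against 36, 42 and 38 in LV-NC (-0.46 ± 0.26; edgeR adjusted p = 0.257); by CPM its groups did not overlap.

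**Figure D3:**
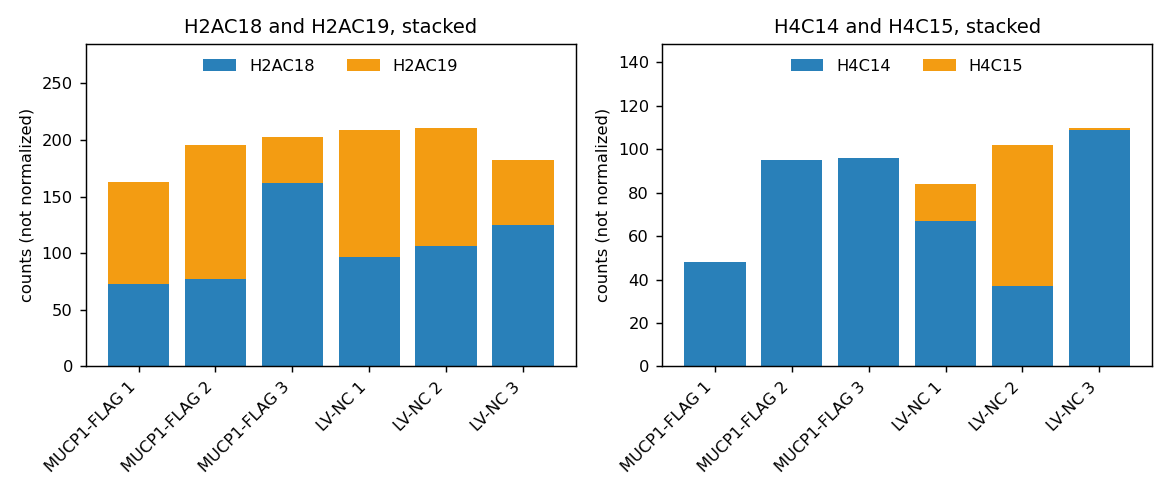
Deposited counts (y axis) of H2AC18 with H2AC19 and of H4C14 with H4C15 in each library (x axis), stacked. The division between the copies shifts from library to library, while the sum of H2AC18 and H2AC19 stays between 163 and 211.

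Of the 8 tested H2B genes 3 fell. H2BC5 (chr6:26158146-26171349, plus strand) had 111, 146 and 93 counts in MUCP1-FLAG, against 226, 229 and 190 in LV-NC. No MUCP1-FLAG library reached an LV-NC library, and its mean was 5.85 ± 0.940 CPM in MUCP1-FLAG and 10.8 ± 0.930 CPM in LV-NC (1.84-fold lower; log2 fold change -0.88 ± 0.13; edgeR adjusted p = 6.16e-05). An antisense gene and a pseudogene overlap H2BC5 in GENCODE, and whether the counting used strand is not stated, so some of its reads could belong to them.

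H2BC21 (chr1:149884459-149886652, minus strand) had 168, 230 and 206 counts in MUCP1-FLAG, against 311, 328 and 273 in LV-NC. All 3 MUCP1-FLAG libraries were lower, with 10.1 ± 0.420 CPM in MUCP1-FLAG and 15.2 ± 0.963 CPM in LV-NC (1.51-fold lower; log2 fold change -0.59 ± 0.10; edgeR adjusted p = 0.000202). It shares 8.11% of its windows with other genes. H2BC12 (chr6:27146418-27146798, minus strand) had 209, 305 and 269 counts in MUCP1-FLAG, against 317, 367 and 311 in LV-NC. By CPM, at 12.1, 13.3 and 13.8 in MUCP1-FLAG and 16.5, 17.01 and 16.3 in LV-NC, its groups did not overlap either. It showed the smallest fall of the 4 (1.27-fold lower; log2 fold change -0.34 ± 0.09; edgeR adjusted p = 0.0113). Its call was lost without MUCP1-FLAG replicate 1 (edgeR adjusted p = 0.0568) and without LV-NC replicate 2 (0.0592), and over all alternatives its adjusted p ran from 0.00686 to 0.0592. The authors' deposited table gives H2BC12 an adjusted p of 0.0548, which does not pass. Of the windows of its coding-only model, 74.1% occur in other genes, so its reads are also uncertain.

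The remaining 5 H2B genes did not pass. H2BC4, which starts 219 bases from H2AC6 on the opposite strand, had 24, 23 and 18 counts in MUCP1-FLAG, against 28, 39 and 39 in LV-NC (log2 fold change -0.69 ± 0.28; edgeR adjusted p = 0.102). The groups did not overlap, and H2BC4 passed with limma on the FPKM values (adjusted p = 0.0437 and 0.0443 with pseudocounts of 1 and 0.1). H2BC18 had 8, 11 and 14 counts in MUCP1-FLAG, against 14, 20 and 26 in LV-NC (-0.85 ± 0.37; edgeR adjusted p = 0.131). H2BC8, with 8, 13 and 5 counts in MUCP1-FLAG and 16, 17 and 11 in LV-NC, had -0.75 ± 0.41 (edgeR adjusted p = 0.242). For both genes every MUCP1-FLAG CPM value was below every LV-NC value, with wide standard errors at these low counts. H2BC18 also overlaps an immune receptor gene on the other strand, so its reads are uncertain. H2BC11 (21, 31 and 19 counts in MUCP1-FLAG, against 29, 33 and 41 in LV-NC) had -0.54 ± 0.28 (edgeR adjusted p = 0.205) without overlap by CPM. H2BC15 (19, 20 and 26 in MUCP1-FLAG, against 25, 32 and 19 in LV-NC) had -0.21 ± 0.30 (edgeR adjusted p = 0.693) with overlap, and it overlaps other histone genes in the annotation.

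**Figure D4:**
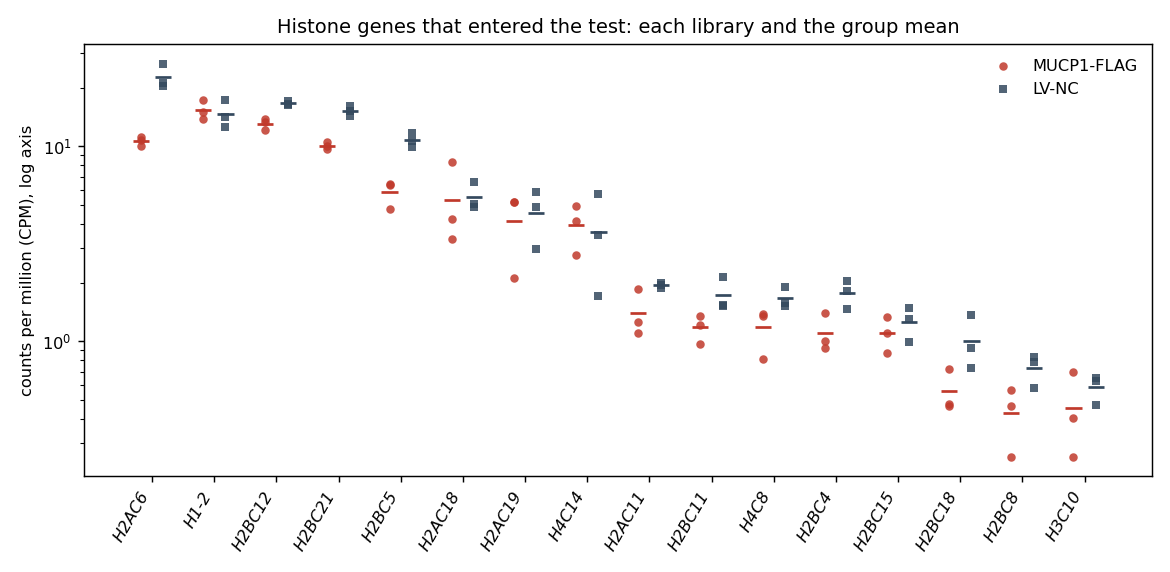
CPM on a log axis (y axis) of the 16 tested histone genes (x axis), with a point for each of the 3 MUCP1-FLAG and 3 LV-NC libraries and a line at each group mean. The groups separate for the 4 genes that fell, H2AC6, H2BC5, H2BC21 and H2BC12. They also separate for H2AC11, H2BC4, H2BC8, H2BC11, H2BC18 and H4C8, which did not pass the test. They overlap for H1-2, whose mean is 15.4 CPM in MUCP1-FLAG and 14.6 CPM in LV-NC.

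H1-2, the linker histone gene that carried nearly all H1 counts, differed by less than the spread of the libraries. It had 300, 316 and 294 counts in MUCP1-FLAG, against 330, 270 and 270 in LV-NC. The groups overlapped, at 15.4 ± 1.84 CPM in MUCP1-FLAG and 14.6 ± 2.38 CPM in LV-NC (log2 fold change 0.07 ± 0.11; edgeR adjusted p = 0.725). It was counted about as deeply as H2BC12. Per length, H1-2 had 20.95 FPKM in MUCP1-FLAG and 20.1 FPKM in LV-NC. H2AC6 had 11.9 FPKM in MUCP1-FLAG and 26.4 FPKM in LV-NC, so H2AC6 was above H1-2 in the LV-NC mean and below it in the MUCP1-FLAG mean. Of the 16 tested members H2BC12 was highest per length in both group means, at 26.2 FPKM in MUCP1-FLAG and 33.7 FPKM in LV-NC. Of the other 5 H1 genes none was tested and 3 were at 0 in all libraries.

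Core histones H3 and H4 were thinly covered. H3C10, the only tested H3 gene, had 7, 16 and 5 counts in MUCP1-FLAG, against 9, 14 and 12 in LV-NC, with overlap (log2 fold change -0.32 ± 0.44; edgeR adjusted p = 0.677). H4C8 had 14, 31 and 27 counts in MUCP1-FLAG, against 30, 41 and 29 in LV-NC (-0.47 ± 0.28; edgeR adjusted p = 0.279), without overlap by CPM. In FPKM its groups overlapped, with 1.83 in MUCP1-FLAG library 3 and 1.43 in LV-NC library 1. H4C14 had 48, 95 and 96 counts in MUCP1-FLAG, against 67, 37 and 109 in LV-NC, with overlap (0.14 ± 0.43; edgeR adjusted p = 0.867). H4C14 overlaps an H3 gene on the opposite strand, so its reads are uncertain. None of the 3 passed, and their standard errors were wide.

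H4C14 has a copy on the same chromosome, H4C15, that holds all of its 50-base windows. H4C15 had 0, 0 and 0 counts in MUCP1-FLAG, against 17, 65 and 1 in LV-NC, and was not tested because too few libraries reached 10 counts. It was listed as lower with an adjusted p of 0.0379 in the authors' deposited table, where 7.50% of genes passed in either direction, and DESeq2 called it (adjusted p = 0.0299), whereas edgeR without a low-count filter did not (adjusted p = 0.403). Where H4C15 was high, in LV-NC library 2, H4C14 was at its lowest. The sum of the copies was 48, 95 and 96 counts in MUCP1-FLAG, against 84, 102 and 110 in LV-NC (log2 fold change -0.32 ± 0.19; edgeR adjusted p = 0.277). The groups of the sum overlapped, so a fall of H4C15 alone cannot be told apart from a different division of reads. H3C14 and H3C15 had identical counts in all 6 libraries, at 6, 11 and 10 in MUCP1-FLAG and 10, 16 and 7 in LV-NC, and are not independent of each other.

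Among the other members outside the test, H3C6 had 3, 10 and 15 counts in MUCP1-FLAG and 9, 5 and 10 in LV-NC. H2AC20 had 8, 11 and 11 counts in MUCP1-FLAG, against 6, 9 and 3 in LV-NC. By CPM its groups did not overlap, with MUCP1-FLAG higher, and its divergent neighbour H2BC21 fell. The GENCODE models of H2AC20 and H2BC21 start 323 bases apart, and that of H2AC20 is coding-only. The 36 untested members with any counts had a median of 12 counts over the 6 libraries together and a maximum of 83. Their sum was 85, 116 and 116 counts in MUCP1-FLAG and 109, 213 and 85 in LV-NC, with overlap. The 62 members other than the 4 that passed, set apart by that call and so given only as a description, summed to 41.3 ± 2.75 CPM in MUCP1-FLAG and 45.9 ± 1.11 in LV-NC, a ratio of 0.899. The 4 held 54.7% of the member counts.

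The H2A and H2B genes are often transcribed in opposite directions from a shared promoter. Starts of GENCODE gene models at most 500 bases apart on opposite strands gave 11 pairs of members. Of these pairs 10 were an H2A with an H2B gene, and in 2 both genes were tested. Coding-only models start at the coding sequence, so their distances can differ from those between transcription starts. H2AC6 and H2BC4 had fitted log2 fold changes of -1.10 and -0.69, and H2AC11 and H2BC11 of -0.46 and -0.54. Of these 4 genes only H2AC6 passed the test. All 4 had values below 0 and no overlap between groups by CPM. In counts and in FPKM the groups of H2BC11 overlapped, with 2.41 FPKM in MUCP1-FLAG library 2 and 2.35 FPKM in LV-NC library 2.

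The promoters of the 4 genes that fell together are given from RefSeq on GRCh38.p14, as 250 bases before and 50 bases after the start, read on the gene's strand. Capitals mark the octamer ATTTGCAT, TATAAA and CCAAT, and their reverse complements ATGCAAAT, TTTATA and ATTGG. In H2BC12 a TTTATA and a TATAAA overlap.
H2AC6 promoter, chr6:26123922-26124221, plus strand: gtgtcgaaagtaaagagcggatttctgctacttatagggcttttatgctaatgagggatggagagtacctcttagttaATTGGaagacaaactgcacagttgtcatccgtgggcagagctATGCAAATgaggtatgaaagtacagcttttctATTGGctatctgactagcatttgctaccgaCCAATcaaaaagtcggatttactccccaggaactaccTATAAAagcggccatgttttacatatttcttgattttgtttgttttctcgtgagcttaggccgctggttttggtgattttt
H2BC5 promoter, chr6:26157871-26158170, plus strand: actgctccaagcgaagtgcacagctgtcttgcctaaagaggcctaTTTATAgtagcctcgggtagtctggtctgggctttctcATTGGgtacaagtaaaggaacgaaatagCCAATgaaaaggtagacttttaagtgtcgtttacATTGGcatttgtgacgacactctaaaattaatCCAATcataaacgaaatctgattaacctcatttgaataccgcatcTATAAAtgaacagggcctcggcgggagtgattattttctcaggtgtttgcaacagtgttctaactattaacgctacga
H2BC21 promoter, chr1:149886633-149886932, minus strand: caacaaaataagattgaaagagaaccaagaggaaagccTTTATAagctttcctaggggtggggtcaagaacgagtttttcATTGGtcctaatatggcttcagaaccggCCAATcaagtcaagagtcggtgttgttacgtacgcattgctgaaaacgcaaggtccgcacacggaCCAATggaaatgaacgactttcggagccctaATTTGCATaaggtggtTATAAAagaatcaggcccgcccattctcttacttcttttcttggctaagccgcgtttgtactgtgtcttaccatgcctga
H2BC12 promoter, chr6:27146809-27147108, minus strand: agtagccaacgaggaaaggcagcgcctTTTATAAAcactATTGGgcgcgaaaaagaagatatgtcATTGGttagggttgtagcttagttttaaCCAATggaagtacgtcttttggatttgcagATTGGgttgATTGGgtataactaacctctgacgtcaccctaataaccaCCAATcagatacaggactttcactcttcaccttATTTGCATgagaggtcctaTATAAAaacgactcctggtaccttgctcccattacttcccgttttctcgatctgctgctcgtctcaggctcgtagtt

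A promoter was found for 61 of the 66 members and for all 16 tested members. The octamer, a motif bound by OCT1 and known from H2B promoters, was in 26 of the 61 (42.6%), against 1.80% of 27305 promoters of the table. It was in 14 of 17 H2B and 11 of 15 H2A promoters, in 1 of 11 H3 promoters and in 0 of 6 H1 and 0 of 12 H4 promoters. Windows of divergent H2A and H2B neighbours can overlap, so the same motif can be counted for both genes. Such promoters are not independent in these shares. The TATA letters were in 41 of 61 member promoters (67.2%), against 12% of all, and the CCAAT letters in 52 (85.2%), against 35.7% of all. In H2BC21 and H2BC12 the octamer began 46 bases before the start. In H2AC6 it began 130 bases before the start, in reverse orientation, and the window of H2BC5 held none. Each of the 4 had a TATAAA beginning 27 to 31 bases before the start. Of the 16 tested members 8 had the octamer, and 3 of the 4 that fell were among these.

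Variant histones, which are made outside S phase as well and mostly from polyadenylated mRNA, moved both ways. Of 11 tested, 4 were higher and 1 lower in MUCP1-FLAG, against 8.35% higher and 7.71% lower over all tested genes. The median log2 fold change of the 11 was 0.13. Summed over the 15 listed genes in the table, they had 1916 ± 39.7 CPM in MUCP1-FLAG and 1923 ± 48.7 CPM in LV-NC, a ratio of 0.997. H2AZ1, which encodes the H2A.Z placed at promoters, rose, at 244 ± 4.13 CPM in MUCP1-FLAG and 204 ± 1.06 CPM in LV-NC (log2 fold change 0.26 ± 0.04; edgeR adjusted p = 0.000315). H2AX, whose protein is phosphorylated at DNA breaks, rose by 0.22 ± 0.06 (edgeR adjusted p = 0.00956), the centromeric H3 gene CENPA by 0.33 ± 0.10 (0.0205) and the H3.3 gene H3-3A by 0.15 ± 0.05 (0.0408). The calls of H2AX, CENPA and H3-3A were lost when some single libraries were left out, and the list then had 1 higher call without MUCP1-FLAG replicate 2 or 3 and 2 without LV-NC replicate 2. None of these 3 genes passed with limma on FPKM, which left 1 higher call, and H3-3A did not pass when counts were scaled by library totals alone (edgeR adjusted p = 0.0711). H3-3B, the other H3.3 gene (-0.06 ± 0.05; edgeR adjusted p = 0.453), and H1-10 (-0.13 ± 0.07; 0.237) did not pass.

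Genes that handle histone mRNA are given beside a background of 8.35% higher and 7.71% lower over all tested genes. In histone gene transcription 1 of 9 tested genes rose and 0 fell (median log2 fold change -0.02): CDK2, the kinase that acts on NPAT, rose by 0.21 ± 0.05 (edgeR adjusted p = 0.00495). NPAT, the coactivator at histone loci, had -0.02 ± 0.08 (edgeR adjusted p = 0.908). Of 17 genes of 3′ end processing 2 rose and 1 fell (median 0.02). SLBP was among those that rose, at 158, 160 and 157 CPM in MUCP1-FLAG, against 134, 140 and 131 CPM in LV-NC (0.23 ± 0.05; edgeR adjusted p = 0.00197), and it kept its call under every alternative run. SLBP and the 4 histone genes that passed thus moved in opposite directions in the same libraries. SNRPD3, a core small nuclear ribonucleoprotein subunit, rose by 0.22 ± 0.06 (edgeR adjusted p = 0.0242), and NCBP2, a cap-binding subunit, fell (-0.20 ± 0.05; edgeR adjusted p = 0.0110). Of 14 decay genes 0 rose and 1 fell (median 0.05), namely the uridylyltransferase TUT7 (-0.25 ± 0.07; edgeR adjusted p = 0.0218). SNRPD3 passed in none of the fits that left out a library other than LV-NC replicate 3. NCBP2 was lost without MUCP1-FLAG replicate 1 or 3, which left 0 lower calls in 3′ end processing, against 2 without LV-NC replicate 1. TUT7 was lost without MUCP1-FLAG replicate 2 or 3 or LV-NC replicate 3; the decay genes had 0 lower calls without either of those MUCP1-FLAG libraries and 2 without LV-NC replicate 2. Transcription had 2 higher calls without LV-NC replicate 3 and 1 lower call without LV-NC replicate 1. With limma on FPKM, SNRPD3 and TUT7 did not pass with either pseudocount, and NCBP2 did not pass with a pseudocount of 1 (adjusted p = 0.0509).

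Of 20 chaperone and import genes 5 rose and 0 fell (median log2 fold change 0.10), beside 8.35% higher and 7.71% lower over all tested genes, among them ASF1B, an H3-H4 chaperone of replicating cells (0.33 ± 0.06; edgeR adjusted p = 0.000382), and HJURP, which loads CENPA (0.27 ± 0.06; 0.00194). TONSL, a reader of new H4 (0.33 ± 0.09; edgeR adjusted p = 0.0188), and NAP1L4, an H2A-H2B chaperone (0.16 ± 0.05; 0.0274), lost their calls without MUCP1-FLAG replicate 2 or 3 or LV-NC replicate 2, which left 2 higher calls in the list. The same 2 calls, ASF1B and HJURP, were left with limma on FPKM. Of 20 S phase genes 15 rose and 0 fell, with a median of 0.28. Among those that rose were the nucleotide enzymes TYMS (0.63 ± 0.05; edgeR adjusted p = 4.97e-09) and RRM2 (0.61 ± 0.04; 3.87e-09) and the replication clamp PCNA (0.36 ± 0.05; 8.51e-06). RRM2 was at 713, 698 and 668 CPM in MUCP1-FLAG, against 469, 443 and 453 CPM in LV-NC, without overlap. All 20 S phase genes had a log2 fold change above 0, whereas 51.0% of all tested genes were below 0. The 4 histone genes that fell went in the opposite direction to the S phase genes.

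**Figure D5:**
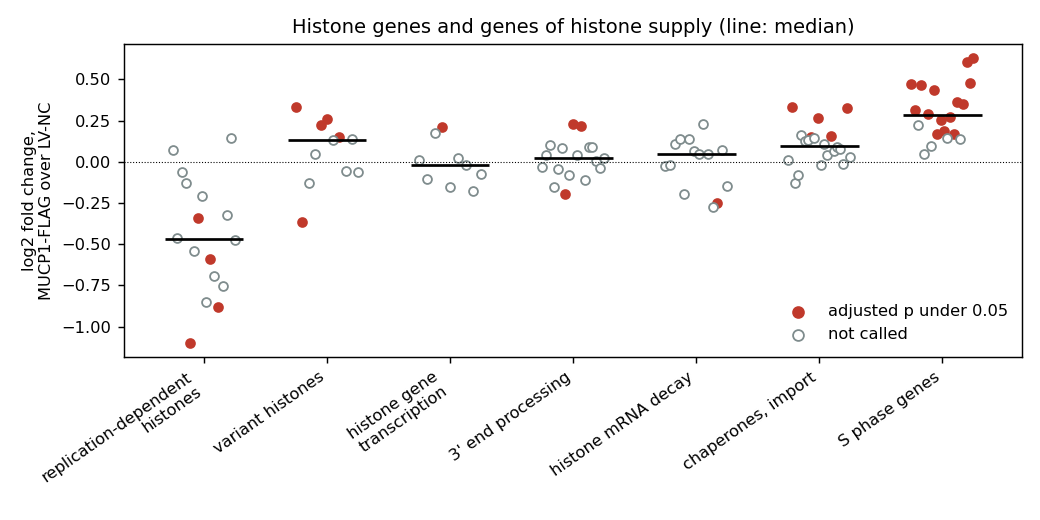
Fitted log2 fold change of MUCP1-FLAG over LV-NC (y axis) for each tested gene of the histone genes and of the lists around them (x axis), with a line at each median. The histone genes have a median of -0.47, the variant histones of 0.13 and the S phase genes of 0.28.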

How the data were processed

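RNA sequencing of 3 MUCP1-FLAG and 3 LV-NC libraries was analysed from 1 gene table. For each library, raw counts and FPKM values by gene were deposited by the authors, per the file headers, together with their own p-value, adjusted p-value and log2 fold change per gene. The build GRCh38 and the tools DESeq2, featureCounts, HISAT2 and fastp are listed, without versions or roles, in the submitters' processing notes. Counts were tested by the robust quasi-likelihood F test of edgeR 4.0.16 (R 4.3.3), with TMM scaling and filterByExpr (minimum count 10), which kept 12920 genes; p-values were adjusted by Benjamini-Hochberg over these, with a threshold of 0.05. Errors of fold changes are standard errors, and CPM values of single genes and markers carry TMM factors, those of histone sums do not. The common biological coefficient of variation was 0.0521. Alternatives were DESeq2 1.42.0, limma 3.58.1 on log2(FPKM + 1) and log2(FPKM + 0.1), other filters and scalings, a replicate block, each library left out, near-identical copies summed, and genes at the edge of the symbol rule added. Every tested member was named, then the 5 untested members with most counts, up to 4 called genes of each list by smallest adjusted p, and SLBP, NPAT, H2AX, H2AZ1, H3-3A, H3-3B and H1-10 in any case; some genes that this rule selects are not reported here. The members and lists were chosen with earlier results of these data known, and no p-value was adjusted over a list. Counts, transcript models and 50-base windows were matched by gene identifier to GENCODE 29, and promoters by symbol to RefSeq. The fitting step was tested on simulated counts. Library pairs within a group differed by more than sampling noise (chi-square per degree of freedom 2.58 to 8.22), so each library counted as 1 replicate.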

Additional observations from a re-analysis of the deposited data

How the results depend on the processing

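Members called lower numbered 4 in the main test and 3 to 5 in every alternative, and members called higher 0 throughout. The fifth was H4C15 with DESeq2 or without LV-NC replicate 3, H2BC4 with limma on FPKM, and H2AW (log2 fold change -0.55 ± 0.12; edgeR adjusted p = 0.00336) when the genes formerly named HIST3 and HIST4 were added. The count was 3 without MUCP1-FLAG replicate 1 or LV-NC replicate 2, where H2BC12 was lost. H2AC6 (-1.17 to -0.97), H2BC5 (-0.95 to -0.75) and H2BC21 (-0.63 to -0.52) passed in every alternative. The MUCP1-FLAG to LV-NC ratio of summed member counts was 0.723, and 0.708 to 0.745 with a library left out; on summed FPKM it was 0.754. The log2 fold changes of 4 genes changed sign when a library was left out: H1-2 ran from -0.031 to 0.20, H2AC18 from -0.55 to 0.20, H2AC19 from -0.35 to 0.18 and H4C14 from -0.21 to 0.63; the cause was not tested.

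Over all genes, limma on log2(FPKM + 1) and log2(FPKM + 0.1) called 514 and 516 higher and 544 and 549 lower, against 1079 and 996 with edgeR, and fits without a library called 639 to 1323 higher and 624 to 1213 lower. In the lists around the histone genes these limma fits called 17 and 17 of 91 genes higher, against 27, and log2(FPKM + 1) called 1 lower, against 3; without a library 18 to 30 were higher and 1 to 5 lower. Fits without a library have fewer samples.

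Replicate numbers did not pair the libraries: deviations from the group means correlated at -0.038, 0.0911 and 0.00438 for same-numbered libraries. With a replicate block 4 members were lower and 0 higher, and 1005 genes were higher and 954 lower; H3-3A did not pass (edgeR adjusted p = 0.0621). Depth limits the untested members, whose median was 12 counts over 6 libraries in those with counts.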
